A study of Rattus norvegicus with 15 samples.

Results

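Genes of the cell division cycle were followed in RNA from rat lung, in 5 libraries each from model rats given Wendan Decoction (WDD), from model rats without it (COPD) and from normal control rats (control). The genes were chosen by name: 48 symbols of cyclins, their kinases and inhibitors, replication factors and mitotic genes, of which 46 were among the 22250 genes of the table. Ccnb2 and E2f1 had no row under these symbols. WDD rats received lipopolysaccharide (LPS) and smoke by the tracheal route and WDD, a Chinese herbal decoction, into the stomach, COPD rats received LPS and smoke only, and control rats received neither, per the labels. All rats were labelled wild type; no strain, sex, age, dose or duration is given in the sources used here. The tissue was whole lung, so a level mixes all cells of the organ.

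A cell enters the division cycle when D-type cyclins with Cdk4 and Cdk6, and then cyclin E with Cdk2, phosphorylate the retinoblastoma protein, which releases E2F factors that switch on the genes of DNA synthesis. Inhibitor proteins of the Cdkn1 and Cdkn2 families hold these kinases back. The MCM helicase then opens DNA for replication, and cyclin B with Cdk1, the Aurora kinases and Plk1 drive mitosis. Resting adult lung holds few dividing cells, and mitotic transcripts are low in it.

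The cycle genes of COPD lungs did not move as one block. Ccnd3, which encodes cyclin D3, was higher than in control lungs, with a log2 fold change of 0.77. Wee1, which encodes the kinase that restrains Cdk1, the inhibitor gene Cdkn1c and the retinoblastoma gene Rb1 were lower, with log2 fold changes of −2.07, −1.89 and −1.63. In WDD lungs, set against COPD lungs, Cdkn1c, Wee1 and Aurkb were higher, with log2 fold changes of 2.67, 1.70 and 2.20, and Ccnd3 was lower, with −0.88. Each of these differences passed the test under all 4 scalings of the libraries that were tried and with each library left out in turn. For many other members the call or the direction turned on the scaling. Mki67, the usual marker of dividing cells, passed in none of the 3 comparisons on the deposited scale. Aurkb held 17.8 to 90.8 FPKM in WDD and control libraries, where Mki67 held at most 4.96. Which cells this Aurkb level comes from was not tested.

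Values are FPKM, a count of sequenced fragments divided by gene length and by library size, as the authors deposited them, and fold changes are differences of log2(FPKM + 1), which understate changes of low genes. Tests used limma over all 13172 genes with at least 1 FPKM in at least 5 libraries, and a gene was called at a Benjamini-Hochberg adjusted p under 0.05. The share of the FPKM sum in the 13 mitochondrial genes was 21.7 ± 2.90% in WDD, 44.9 ± 12.4% in COPD and 8.11 ± 1.94% in control libraries (SD, n = 5 each; exact permutation test, two-sided, p = 0.00794 for each pair, the smallest that 5 against 5 libraries allow). The median fold change of all tested genes was −0.81 for COPD against control, 0.54 for WDD against COPD and −0.23 for WDD against control. Under median-of-ratios scaling these medians were −0.05, 0.03 and 0.01. Where it bears on a result, a fold change is also given relative to these medians. The median log2 level of 27 long housekeeping genes less that of 27 short ones was −3.21 ± 0.39 in WDD, −3.77 ± 0.49 in COPD and −1.25 ± 0.43 in control libraries, so the balance of long and short transcripts also moved with the groups (exact permutation test, two-sided, p = 0.0952 for WDD against COPD and 0.00794 for each against control). Its part in the results was not tested.

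Whole-lung markers differed too. The summed FPKM of 10 neutrophil markers was 91.3 to 461 in WDD, 11851 to 43244 in COPD and 55.3 to 106 in control libraries. The sum of 9 T cell markers was 151 to 209 in WDD, 23.8 to 64.6 in COPD and 149.8 to 207 in control libraries, and that of 9 endothelial markers was 665 to 799, 142 to 561 and 643 to 902 FPKM in WDD, COPD and control libraries. In these lists 1 endothelial gene was at 0 in every library and no other marker was. The 8 markers of alveolar type 2 cells, which define lung, summed to 19459 to 22837 FPKM in WDD, 3071 to 14300 in COPD and 16356 to 25045 in control libraries. Fewer cells of a type and less RNA per cell cannot be told apart in such samples, and the part of cell makeup in the results was not tested. Library COPD 5 stood apart from the other COPD libraries: its correlations with them across genes were 0.885 to 0.898, against 0.961 to 0.980 among the other 4, and it had the lowest endothelial sum and the lowest neutrophil sum of its group. Calls are given with and without it.

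Promoters of cell cycle genes carry short elements that are known, from human and mouse cells, to be read by NF-Y (CCAAT), by the DREAM and MuvB complexes (TTTGAA) and by E2F factors (TTTNNCGC, with N for any base). The RefSeq promoter table of build GRCr8 held 32 of the 46 members. In the 150 bases before the start, on either strand, CCAAT was found in 18 of the 32, or 56.2%, and in 23.5% of all 33469 promoters. TTTGAA was found in 5 members (15.6%; 9.13% of all promoters) and TTTNNCGC in 7 (21.9%; 2.65% of all). All 5 members with TTTGAA, which are Mki67, Top2a, Cdk1, Cdc20 and Birc5, were among the 15 proliferation, mitotic and spindle members of the table, while 5 of the 7 with TTTNNCGC, which are Mcm2, Mcm5, Mcm6, Mcm7 and Tyms, were among the 9 of licensing and DNA synthesis. No TTTGAA or TTTNNCGC was found in the 8 G1 members. A match is a run of letters and not a shown binding site. The first 4 sequences belong to mitotic genes that were lowest together in library COPD 5. Aurka, Bub1 and Bub1b, whose promoters held none of these motifs, were also lowest in COPD 5. The next pair of sequences belong to helicase genes that were called lower in COPD lungs, and the last pair to G1 genes that differed in opposite directions. Each is written on its gene's strand, 5′ to 3′, with the motifs or their reverse complements in capitals.
Mki67: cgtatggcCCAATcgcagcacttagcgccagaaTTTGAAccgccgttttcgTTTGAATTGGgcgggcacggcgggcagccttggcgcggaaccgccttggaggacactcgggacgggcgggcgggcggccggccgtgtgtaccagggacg
Top2a: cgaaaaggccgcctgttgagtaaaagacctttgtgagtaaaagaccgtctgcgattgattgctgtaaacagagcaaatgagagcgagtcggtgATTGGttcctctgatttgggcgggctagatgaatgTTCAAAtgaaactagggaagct
Cdk1: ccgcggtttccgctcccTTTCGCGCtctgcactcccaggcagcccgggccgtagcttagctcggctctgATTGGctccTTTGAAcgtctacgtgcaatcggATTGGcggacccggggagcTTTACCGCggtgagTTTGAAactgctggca
Cdc20: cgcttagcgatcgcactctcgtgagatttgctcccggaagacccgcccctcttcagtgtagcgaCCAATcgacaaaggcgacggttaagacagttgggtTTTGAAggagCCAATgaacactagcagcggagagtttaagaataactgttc
Mcm2: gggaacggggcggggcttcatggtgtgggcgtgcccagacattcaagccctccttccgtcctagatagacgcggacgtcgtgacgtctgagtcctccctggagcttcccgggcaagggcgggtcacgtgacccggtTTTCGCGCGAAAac
Mcm6: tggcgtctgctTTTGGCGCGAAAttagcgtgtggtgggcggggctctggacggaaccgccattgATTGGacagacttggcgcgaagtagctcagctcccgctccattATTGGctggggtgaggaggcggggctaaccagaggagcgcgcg
Ccnd3: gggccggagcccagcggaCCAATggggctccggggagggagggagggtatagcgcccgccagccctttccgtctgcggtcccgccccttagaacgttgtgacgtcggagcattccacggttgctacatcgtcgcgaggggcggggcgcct
Rb1: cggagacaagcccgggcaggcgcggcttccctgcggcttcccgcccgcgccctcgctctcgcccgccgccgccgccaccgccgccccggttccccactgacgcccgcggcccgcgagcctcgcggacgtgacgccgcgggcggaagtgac
In build GRCr8 these lie at chr1:199952594-199952743 (minus strand) for Mki67, chr10:84473094-84473243 (minus strand) for Top2a, chr20:19265143-19265292 (plus strand) for Cdk1 and chr5:137255800-137255949 (minus strand) for Cdc20. Those of Mcm2 and Mcm6 lie at chr4:122918095-122918244 (minus strand) and chr13:42404353-42404502 (minus strand), and those of Ccnd3 and Rb1 at chr9:20897876-20898025 (minus strand) and chr15:54911858-54912007 (minus strand). In Mki67 a TTTGAA overlaps a reversed CCAAT, and in Mcm2 and Mcm6 a TTTNNCGC overlaps its own reverse complement.

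Of the 46 members, 39 passed the filter on low values. The 7 below it never exceeded 2 FPKM: the highest values were 1.202 for Ccne1, 0.8202 for Cdc6, 1.004 for Cenpe, 1.45 for Cenpf, 1.42 for Kif11, 1.44 for Nusap1 and 1.88 for Bub1b. In COPD against control, 3 of the 39 were called higher and 20 lower, and 16 did not pass; of all 13172 genes, 74.7% were called, 8.23% higher and 66.4% lower. In WDD against COPD, 12 were called higher and 1 lower, where 63.8% of all genes were called, 57.1% higher and 6.63% lower. In WDD against control, 0 were called higher by limma and 6 lower (1 and 8 at an unadjusted p under 0.05), where 37.3% of all genes were called, 6.35% higher and 31.0% lower. The members' share of calls was below that of all genes in each comparison on this scale. Under quantile normalisation it was 64.1% in COPD against control, where 28.4% of all genes were called higher and 29.6% lower, and 61.5% in WDD against COPD, where 22.1% were called higher and 18.7% lower. Under median-of-ratios scaling the share was 46.2% in COPD against control (30.2% of all genes higher, 32.3% lower). It was 35.9% in WDD against COPD (23.4% higher, 21.4% lower). Scaled by the FPKM sum without mitochondrial genes, 4 members were called higher and 13 lower in COPD against control (11.2% and 59.3% of all genes). In WDD against COPD that scaling called 7 higher and 4 lower (34.5% and 11.5%). Every COPD library lay below every control library in 10 members, where 52.3% of all genes did so, and every WDD library lay above every COPD library in 11, where 40.6% of all genes did so. Their median fold changes were −0.41, 0.08 and −0.28 in the 3 comparisons, against −0.81, 0.54 and −0.23 for all genes. These comparisons share libraries, so they are not independent of each other. Strand use in the counting is not given, so the levels of members that overlap another coding gene in RefSeq are uncertain: Cdk4 (Tspan31), Cdk2 (Pmel), Ccne2 (Ints8), Rb1 (Lpar6), Rrm2 (Cys1), Plk1 (Ern2), Aurka (Fam210b), Foxm1 (Tex52), Kif20a (Cdc23), Kif11 (Ide) and Nusap1 (Ndufaf1).

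**Figure D1:**
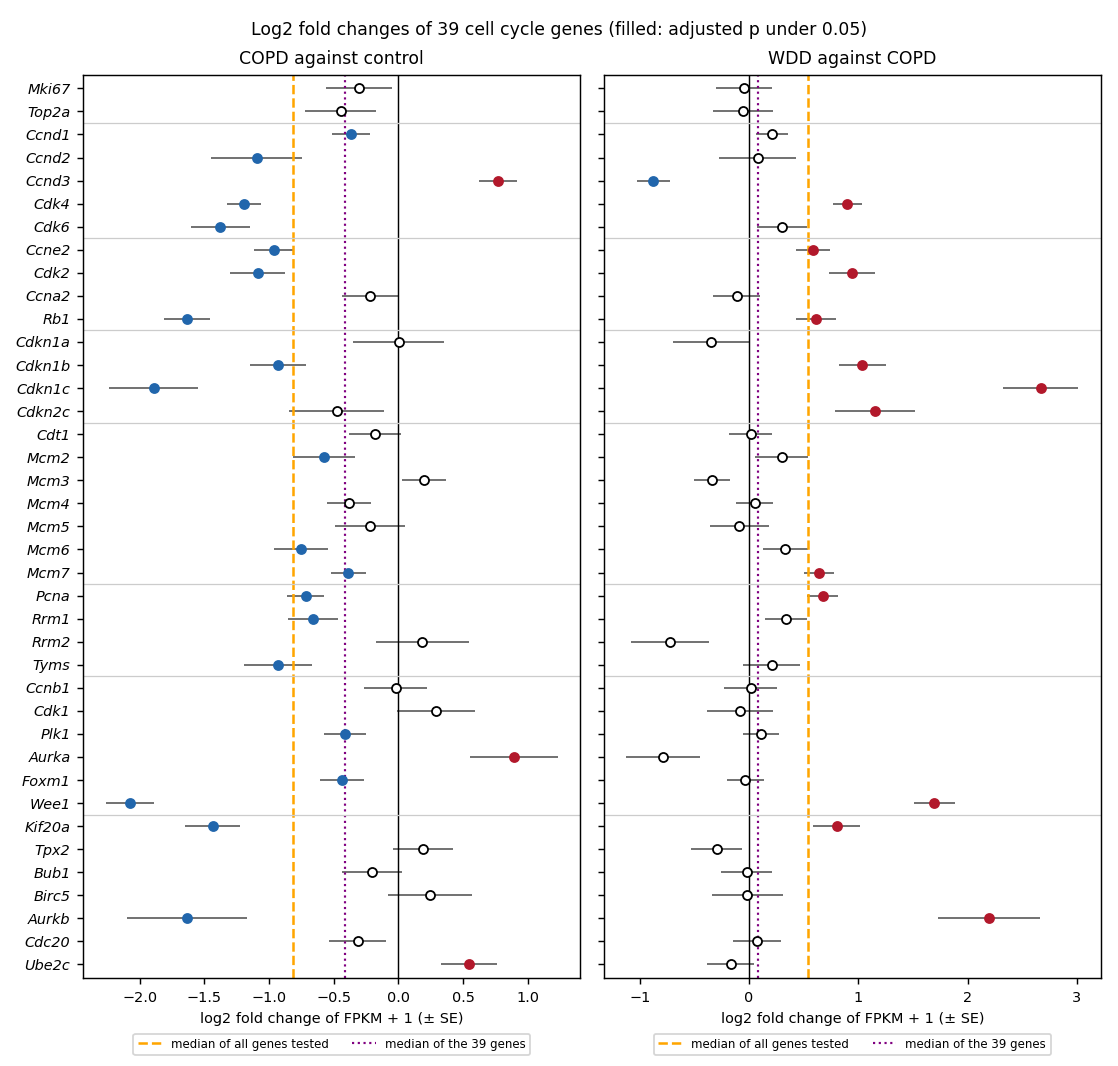
Log2 fold changes of FPKM + 1 with their standard errors for the 39 members that passed the filter, ordered by role from top to bottom, for COPD against control (left) and WDD against COPD (right), 5 libraries a group. Filled points were called at an adjusted p under 0.05 (red higher, blue lower). The dashed line is the median of all genes tested and the dotted line that of the 39. On the left 3 are red and 20 blue (8.23% and 66.4% of all genes), and on the right 12 and 1 (57.1% and 6.63%). Under median-of-ratios scaling these counts are 13 and 5 (30.2% and 32.3% of all genes), and 3 and 11 (23.4% and 21.4%).

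Among the D-type cyclins and their kinases, which start the cycle, Ccnd3 stood against the rest in COPD lungs. Ccnd3 had 61.3, 64.1, 51.05, 70.1 and 76.7 FPKM in the 5 WDD libraries, 95.01, 136, 111, 112 and 146 FPKM in COPD libraries and 74.8, 82.2, 70.6, 59.8 and 60.1 FPKM in control libraries. Every COPD library lay above every WDD and control library, and WDD and control overlapped. The fold change was 0.77 ± 0.15 (SE) for COPD against control (adjusted p = 0.000211) and −0.88 ± 0.15 for WDD against COPD (adjusted p = 0.000129), which is 1.58 and −1.42 relative to the medians of all genes. Without COPD 5 the values were 0.70 and −0.80, and both stayed called. It was the only member whose COPD libraries all lay above control, where 3.99% of all genes did so, and the only one whose WDD libraries all lay below COPD (4.43% of all genes).

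Cdk4, the kinase partner of the D cyclins, had 43.1, 41.2, 39.2, 60.8 and 49.2 FPKM in the 5 WDD libraries, 22.03, 29.2, 23.9, 25.4 and 21.6 FPKM in COPD libraries and 60.97, 56.9, 57.3, 58.4 and 51.04 FPKM in control libraries. COPD libraries lay below all others, with a fold change of −1.19 ± 0.13 against control (adjusted p = 6.78e-07), and WDD libraries were higher than COPD by 0.90 ± 0.13 (adjusted p = 3.59e-05). Under median-of-ratios scaling both kept their sign but were −0.28 and 0.27 and were not called. Cdk6, the second D-cyclin kinase, had 2.01, 1.83, 1.095, 1.19 and 3.08 FPKM in the 5 WDD libraries, 0.701, 1.76, 1.41, 0.958 and 1.55 FPKM in COPD libraries and 2.57, 4.79, 4.78, 6.06 and 6.89 FPKM in control libraries. It was lower in COPD than in control lungs, at −1.38 ± 0.23 (adjusted p = 4.16e-05) with no overlap, a call lost under quantile normalisation (−0.32, adjusted p = 0.207), and it was also lower in WDD than in control lungs, at −1.08 ± 0.23 (adjusted p = 0.00156), with WDD 5 inside the control range. The WDD difference was called under all 4 scalings; WDD and COPD overlapped.

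Ccnd1, cyclin D1, had 41.9, 50.1, 42.9, 48.9 and 51.4 FPKM in the 5 WDD libraries, 45.4, 55.4, 35.5, 29.4 and 40.5 FPKM in COPD libraries and 48.9, 54.98, 57.9, 48.9 and 51.2 FPKM in control libraries. The groups overlapped, and the COPD call of −0.37 ± 0.15 against control (adjusted p = 0.0343) turned to 0.55 under median-of-ratios scaling (adjusted p = 0.00746), and it was lost without COPD 3 or COPD 4 or without control 2, 3 or 5 (adjusted p 0.0516 to 0.105). Ccnd2, cyclin D2, ranged over 4.48 to 9.88 FPKM in WDD, 3.72 to 15.5 in COPD and 6.09 to 23.4 in control libraries; COPD 5 held the highest COPD value. It was lower than in control lungs in both WDD (−1.02 ± 0.35, adjusted p = 0.0313) and COPD (−1.10 ± 0.35, adjusted p = 0.00979), and neither was called under median-of-ratios scaling. The WDD call was also lost without WDD 2, 3 or 5 or control 2, 3, 4 or 5 (adjusted p 0.0505 to 0.0868). In this role all 5 members were called in COPD against control on the deposited scale, 1 higher and 4 lower. Of all genes, 74.7% were called, 8.23% higher and 66.4% lower. Under median-of-ratios scaling 2 of the 5 were called higher and 1 lower, and 2 did not pass (30.2% of all genes higher, 32.3% lower).

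**Figure D2:**
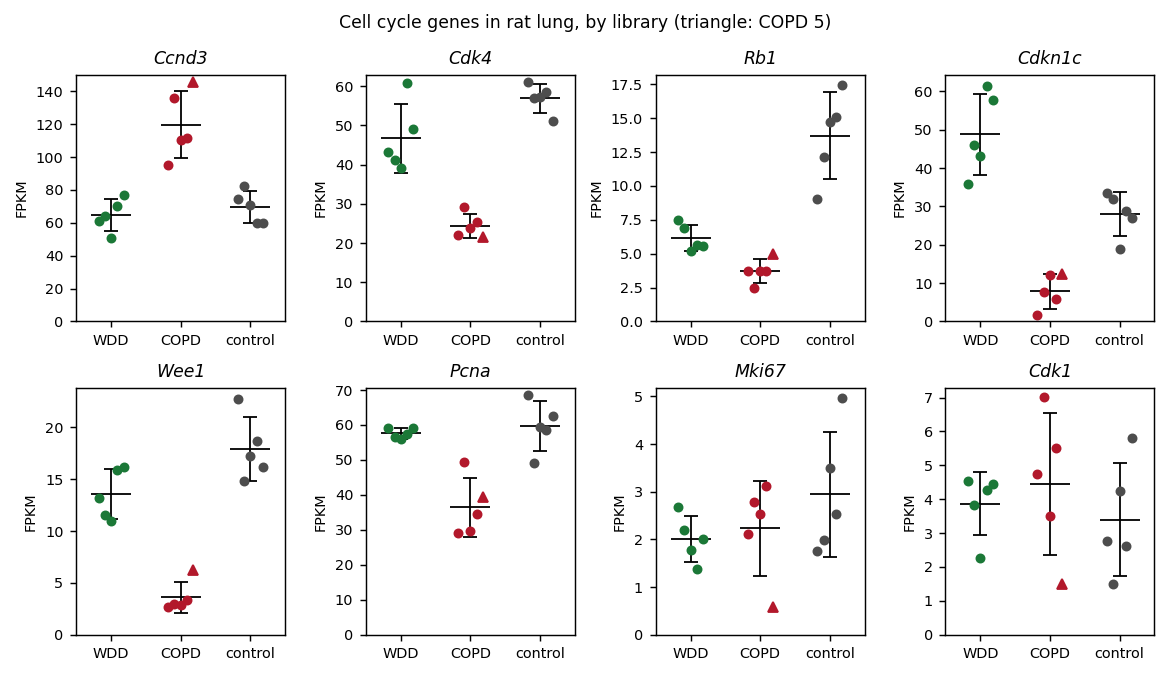
FPKM of 8 cell cycle genes in each library, with WDD, COPD and control from left to right; horizontal bars are group means, error bars SD (n = 5), and the triangle is library COPD 5. Ccnd3 is above the other groups in all 5 COPD libraries, while the COPD libraries of Cdk4, Rb1, Cdkn1c and Wee1 are below them, and in Mki67 and Cdk1 the groups overlap.

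At the gate from G1 to S phase, Rb1 separated all 3 groups. Rb1, whose protein holds E2F factors in check, had 7.47, 6.902, 5.19, 5.65 and 5.59 FPKM in the 5 WDD libraries, 3.74, 2.43, 3.704, 3.75 and 4.96 FPKM in COPD libraries and 9.06, 12.1, 14.8, 15.1 and 17.5 FPKM in control libraries. COPD libraries lay lowest, WDD libraries above them and control libraries highest, with no overlap between any pair. It was lower in COPD than in control, at −1.63 ± 0.18 (adjusted p = 5.78e-07) and lower in WDD than in control, at −1.02 ± 0.18 (adjusted p = 0.000408), and both were called under all 4 scalings. The WDD against COPD difference of 0.61 ± 0.18 (adjusted p = 0.00729) was close to the median of all genes, 0.07 apart from it, and was 0.07 with median-of-ratios scaling and −0.02 with quantile normalisation. Lpar6, which overlaps Rb1, averaged 16.5 FPKM in WDD, 12.3 in COPD and 19.9 in control libraries.

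Ccne2, cyclin E2, had 4.27, 4.83, 4.99, 3.68 and 3.52 FPKM in the 5 WDD libraries, 2.59, 2.12, 2.79, 3.14 and 1.92 FPKM in COPD libraries and 6.05, 4.08, 6.305, 7.26 and 5.54 FPKM in control libraries. COPD libraries lay below all others; the fold change was −0.96 ± 0.15 against control (adjusted p = 3.36e-05) and WDD was higher than COPD by 0.59 ± 0.15 (adjusted p = 0.00377), while quantile normalisation gave 0.11 and −0.06. Its kinase Cdk2 had 20.6, 17.9, 19.5, 14.5 and 15.3 FPKM in the 5 WDD libraries, 6.73, 9.799, 11.5, 13.4 and 4.399 FPKM in COPD libraries and 18.8, 20.3, 21.04, 17.9 and 18.8 FPKM in control libraries. Again COPD libraries lay below all others, at −1.09 ± 0.21 against control (adjusted p = 0.000222), and WDD was higher than COPD by 0.94 ± 0.21 (adjusted p = 0.0012); under median-of-ratios scaling neither was called, at −0.23 and 0.35. Ccna2, cyclin A2 of S phase and mitosis, ranged over 1.18 to 2.17 FPKM in WDD, 0.645 to 2.95 in COPD and 1.43 to 3.36 in control libraries and was not called in any comparison on the deposited scale. Quantile normalisation called it higher in COPD than in control (0.79, adjusted p = 0.00223) and lower in WDD than in COPD (−0.76, adjusted p = 0.00486).

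The CDK inhibitors differed among themselves, and the widest differences between groups were in Cdkn1c. Cdkn1c, which encodes p57, had 35.8, 46.1, 43.1, 61.4 and 57.8 FPKM in the 5 WDD libraries, 1.62, 7.597, 12.2, 5.75 and 12.4 FPKM in COPD libraries and 33.5, 31.97, 18.9, 28.9 and 26.9 FPKM in control libraries. COPD libraries lay lowest and WDD libraries highest, with control between them and no overlap. COPD was lower than control, at −1.89 ± 0.34 (adjusted p = 0.000108) and WDD was higher than COPD by 2.67 ± 0.34 (adjusted p = 9.66e-06), called under all 4 scalings, at −1.05 and 2.10 under median-of-ratios. WDD against control was 0.78 ± 0.34 and did not pass (adjusted p = 0.0861), although all 5 WDD libraries lay above all 5 control libraries, as in 6.76% of all genes; under median-of-ratios scaling it was 1.05 and passed (adjusted p = 0.0302).

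Cdkn1b, which encodes p27, had 148, 143, 139.8, 124 and 135 FPKM in the 5 WDD libraries, 48.9, 75.9, 103, 91.1 and 37.3 FPKM in COPD libraries and 122, 136, 137, 124 and 121 FPKM in control libraries. All COPD libraries lay below the others, with COPD 5 the lowest; the fold change was −0.93 ± 0.21 against control (adjusted p = 0.00093) and WDD was higher than COPD by 1.04 ± 0.21 (adjusted p = 0.000613), while under median-of-ratios scaling COPD against control was −0.01 and neither was called. Cdkn2c, which encodes p18, had 11.7, 11.1, 9.67, 10.9 and 10.8 FPKM in the 5 WDD libraries, 3.61, 8.99, 8.75, 4.94 and 0.608 FPKM in COPD libraries and 9.63, 5.06, 6.15, 6.82 and 5.199 FPKM in control libraries. WDD libraries lay above every COPD and control library, and the gap to the highest control library was small. WDD was higher than COPD by 1.15 ± 0.37 (adjusted p = 0.012), while WDD against control, at 0.67 ± 0.37, did not pass (adjusted p = 0.162). The WDD against control difference passed without COPD 5 in the shared fit (adjusted p = 0.013) and under quantile normalisation (1.09, adjusted p = 0.0171). WDD against COPD was 0.72 without COPD 5, still called, and was not called under the other 3 scalings.

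Cdkn1a, which encodes p21 and is a target of p53, had 23.7, 17.8, 26.9, 36.5 and 39.9 FPKM in the 5 WDD libraries, 17.1, 43.9, 24.6, 29.1 and 103 FPKM in COPD libraries and 47.03, 31.4, 29.8, 36.1 and 35.4 FPKM in control libraries. COPD 5 held the highest value of the 15 libraries, and the other 4 COPD libraries overlapped both WDD and control. No comparison was called: COPD against control was 0.00 ± 0.35 with COPD 5 (adjusted p = 0.998) and −0.38 without it (adjusted p = 0.178), and WDD against COPD was −0.34 ± 0.35 with it and 0.03 without it. Under median-of-ratios scaling, with COPD 5, both were called, at 0.91 (adjusted p = 0.0448) and −0.98 (adjusted p = 0.0446). The COPD mean was 43.5 ± 34.6 FPKM (SD, n = 5) with COPD 5 and 28.7 ± 11.3 FPKM (SD, n = 4) without it.

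The replication licensing genes encode the MCM helicase and factors that load it. Of the 7 tested, 3 were called lower in COPD than in control lungs, where 66.4% of all genes were. Under median-of-ratios scaling none was (32.3% of all genes), while Cdt1, Mcm3, Mcm4 and Mcm7 were called higher (30.2% of all genes). Mcm6, a helicase subunit, had 4.43, 4.604, 3.06, 4.33 and 3.98 FPKM in the 5 WDD libraries, 4.51, 3.24, 3.54, 3.32 and 1.27 FPKM in COPD libraries and 4.35, 4.91, 6.43, 5.998 and 7.54 FPKM in control libraries. COPD and control overlapped at COPD 1, and COPD was lower, at −0.75 ± 0.21 (adjusted p = 0.00367), or −0.01 under median-of-ratios scaling. Mcm2, another subunit, had 5.596, 5.23, 6.01, 5.76 and 6.22 FPKM in the 5 WDD libraries, 6.11, 6.66, 4.87, 5.11 and 1.56 FPKM in COPD libraries and 5.38, 9.902, 6.48, 7.08 and 7.68 FPKM in control libraries. Its COPD call of −0.57 ± 0.24 (adjusted p = 0.0399) was −0.30 without COPD 5 and then did not pass (adjusted p = 0.0746), nor without COPD 3 or control 2, 4 or 5 (adjusted p 0.0502 to 0.104). COPD 5 was the lowest library, and the other 4 COPD libraries overlapped WDD and control.

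Mcm7 had 22.7, 25.2, 24.4, 22.7 and 22.6 FPKM in the 5 WDD libraries, 12.02, 16.1, 12.4, 14.8 and 19.5 FPKM in COPD libraries and 16.9, 23.2, 18.8, 19.8 and 19.8 FPKM in control libraries. WDD libraries lay above all COPD libraries, by 0.64 ± 0.14 (adjusted p = 0.000728), with COPD lower than control, at −0.39 ± 0.14 (adjusted p = 0.0159); the COPD call turned to 0.50 under median-of-ratios scaling (adjusted p = 0.0074), and the WDD one was 0.02. Mcm7 overlaps the miRNA genes Mir25, Mir93 and Mir106b in RefSeq. The other helicase genes, Mcm3, Mcm4 and Mcm5, and Cdt1, the loading factor, were not called in any comparison on the deposited scale with all libraries. Mcm3 ranged over 5.21 to 6.88 FPKM in WDD, 5.897 to 11.5 in COPD and 5.32 to 8.15 in control libraries, and its fold change of 0.20 for COPD against control was 1.02 and called under median-of-ratios scaling (adjusted p = 0.000124). The scalings other than the deposited one all called Mcm3 higher in COPD than in control and lower in WDD than in COPD (−0.65 to −0.92). COPD fold changes of Mcm4, Mcm5 and Cdt1 against control were −0.38, −0.22 and −0.18.

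Pcna, the sliding clamp of DNA polymerase, was the highest of the DNA synthesis genes on this per-length scale. It had 59.2, 56.5, 55.9, 57.4 and 59.2 FPKM in the 5 WDD libraries, 29.1, 49.4, 29.8, 34.4 and 39.4 FPKM in COPD libraries and 68.6, 49.2, 59.4, 58.6 and 62.7 FPKM in control libraries. WDD libraries lay close together and above all COPD libraries, and COPD 2 reached the lowest control library. COPD was lower than control, at −0.72 ± 0.14 (adjusted p = 0.000259) and WDD was higher than COPD by 0.67 ± 0.14 (adjusted p = 0.00073), while under median-of-ratios scaling they were 0.20 and 0.04 and were not called. The difference between WDD and control, −0.04 ± 0.14, did not pass (adjusted p = 0.848).

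Tyms, thymidylate synthase, had 1.86, 3.83, 1.61, 2.23 and 2.6995 FPKM in the 5 WDD libraries, 2.11, 3.44, 2.71, 1.404 and 0.711 FPKM in COPD libraries and 2.302, 4.78, 4.997, 5.25 and 6.41 FPKM in control libraries. It was lower than in control lungs in WDD (−0.72 ± 0.26, adjusted p = 0.0394) and in COPD (−0.93 ± 0.26, adjusted p = 0.00428), with overlap in both and with no call in either under median-of-ratios scaling. The WDD call of Tyms held only without WDD 2 or control 1 among the WDD and control libraries left out in turn; without any of the others the adjusted p was 0.056 to 0.103. Rrm1, the large subunit of ribonucleotide reductase, had 9.27, 7.67, 7.64, 7.97 and 8.34 FPKM in the 5 WDD libraries, 7.15, 7.58, 7.89, 6.07 and 3.56 FPKM in COPD libraries and 7.95, 8.45, 10.8, 11.3 and 15.1 FPKM in control libraries. COPD libraries lay just below all control libraries (−0.66 ± 0.19, adjusted p = 0.00521; 0.17 under median-of-ratios scaling). Rrm2, its S-phase subunit, ranged over 1.08 to 3.61 FPKM in WDD, 0.6802 to 7.07 in COPD and 2.003 to 5.79 in control libraries. WDD against COPD was −0.72 ± 0.36 for Rrm2 (adjusted p = 0.0889) and, without COPD 5, −1.10 (adjusted p = 0.00147), and with all libraries it was called lower under the other 3 scalings, at −1.20 (median-of-ratios, adjusted p = 0.0151), −0.99 (sum without mitochondrial genes, 0.0481) and −1.33 (quantiles, 0.0044).

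The proliferation markers were low and overlapped in all groups. Mki67, which encodes the Ki-67 antigen, had 2.68, 2.19, 1.78, 1.38 and 2.01 FPKM in the 5 WDD libraries, 2.12, 2.79, 2.54, 3.11 and 0.5799 FPKM in COPD libraries and 1.75, 1.98, 3.51, 2.53 and 4.96 FPKM in control libraries. COPD 5 had the lowest value of all 15 libraries, and the other 4 COPD libraries lay inside the control range. Fold changes were −0.30 ± 0.26 for COPD against control (adjusted p = 0.294) and −0.04 ± 0.26 for WDD against COPD (adjusted p = 0.889), and without COPD 5 they were −0.06 and −0.28. Top2a, the topoisomerase that untangles replicated DNA, had 1.98, 1.89, 0.946, 1.34 and 1.42 FPKM in the 5 WDD libraries, 1.95, 3.14, 1.75, 1.94 and 0.169 FPKM in COPD libraries and 1.696, 1.72, 3.003, 2.55 and 4.22 FPKM in control libraries. Its fold changes were −0.45 ± 0.28 (adjusted p = 0.153) and −0.06 ± 0.28 (adjusted p = 0.864), and COPD 5 was again lowest; without it they were −0.16 and −0.34. Quantile normalisation gave 0.71 for Mki67 in COPD against control, a call in the opposite direction, and called both genes lower in WDD than in COPD lungs, at −0.68 and −0.67.

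In mitotic entry, Wee1 and Aurka differed from control in opposite directions. Wee1 had 13.2, 11.6, 11.01, 15.9 and 16.2 FPKM in the 5 WDD libraries, 2.64, 2.96, 2.87, 3.34 and 6.25 FPKM in COPD libraries and 22.8, 14.8, 17.2, 18.7 and 16.2 FPKM in control libraries. COPD libraries lay below all others, and COPD 5 was the highest of them. The fold change of −2.07 ± 0.19 against control (adjusted p = 8.06e-08) was the lowest of the 39 members, −1.26 relative to the median of all genes, and WDD was higher than COPD by 1.70 ± 0.19 (adjusted p = 2.55e-06). Both were called under all 4 scalings, and without COPD 5 they were −2.25 and 1.87.

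Aurka had 6.78, 7.77, 5.97, 4.82 and 5.36 FPKM in the 5 WDD libraries, 11.5, 19.04, 15.1, 17.1 and 2.65 FPKM in COPD libraries and 5.31, 5.41, 5.55, 4.95 and 6.66 FPKM in control libraries. The first 4 COPD libraries lay above all WDD and control libraries and COPD 5 lay below them all. COPD was higher than control by 0.89 ± 0.34 (adjusted p = 0.0251), and WDD against COPD was −0.78 ± 0.34 and did not pass on the deposited scale (adjusted p = 0.0529). The other 3 scalings called it lower in WDD, at −1.36 (median-of-ratios, adjusted p = 0.00271), −1.11 (sum without mitochondrial genes, 0.0187) and −1.29 (quantiles, 0.00145). Without COPD 5, on the deposited scale, the values were 1.33 (adjusted p = 1.02e-06) and −1.22 (adjusted p = 7.16e-06), and both were called. The COPD call was lost without COPD 2, 3 or 4 (adjusted p 0.0597 to 0.0727). Aurka overlaps Fam210b in RefSeq, whose mean was 5.97 FPKM in WDD, 2.29 in COPD and 12.3 in control libraries, a different pattern.

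Foxm1, a transcription factor of mitotic genes, had 2.09, 2.15, 1.72, 1.35 and 1.12 FPKM in the 5 WDD libraries, 1.77, 1.91, 1.58, 2.72 and 0.912 FPKM in COPD libraries and 2.34, 2.44, 3.03, 2.63 and 3.01 FPKM in control libraries. All WDD libraries lay below all control libraries (−0.47 ± 0.17, adjusted p = 0.0386), as in 31.4% of all genes. The COPD difference from control was −0.44 ± 0.17 (adjusted p = 0.0289) and did not pass without COPD 5 (adjusted p = 0.0793) or without COPD 3, control 3 or control 5 (adjusted p 0.0537 to 0.0638); under median-of-ratios scaling the values were −0.26 for WDD and 0.19 for COPD, neither called. That scaling and quantile normalisation called Foxm1 lower in WDD than in COPD, at −0.46 and −0.69. The WDD call against control was lost without WDD 3, 4 or 5 or without control 2, 3, 4 or 5 (adjusted p 0.0517 to 0.108). Plk1, the polo-like kinase, was lower in COPD than in control, at −0.41 ± 0.16 (adjusted p = 0.0301), again not without COPD 5 (adjusted p = 0.0612), nor without COPD 3, control 2 or control 4 (adjusted p 0.0683 to 0.0737), and with the opposite sign, 0.23, under median-of-ratios scaling. Cdk1, the kinase of mitosis, and its cyclin gene Ccnb1 were not called in any comparison on the deposited scale. Cdk1 ranged over 2.27 to 4.52 FPKM in WDD, 1.49 to 7.01 in COPD and 1.51 to 5.798 in control libraries, and Ccnb1 over 0.788 to 2.402, 0.542 to 2.56 and 0.687 to 2.496 in WDD, COPD and control libraries. For COPD against control, Cdk1 was 0.29, or 0.55 without COPD 5, and was called higher under median-of-ratios scaling (1.01, adjusted p = 0.00669) and quantile normalisation (1.29, adjusted p = 0.000546). Quantile normalisation also called Cdk1 lower in WDD than in COPD (−0.69, adjusted p = 0.0432), and called Ccnb1 higher in COPD than in control (0.93) and lower in WDD than in COPD (−0.64).

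Among the genes of the spindle, the checkpoint and mitotic exit, Kif20a and Aurkb were called lower in COPD lungs and Ube2c higher. Kif20a, a kinesin of cytokinesis, had 6.66, 5.33, 4.18, 3.25 and 4.05 FPKM in the 5 WDD libraries, 1.57, 2.58, 2.79, 3.59 and 1.09 FPKM in COPD libraries and 6.44, 6.28, 8.14, 8.53 and 9.24 FPKM in control libraries. COPD libraries lay below all control libraries and touched the WDD range at COPD 4. COPD was lower than control, at −1.43 ± 0.21 (adjusted p = 1.40e-05), WDD was lower than control, at −0.63 ± 0.21 (adjusted p = 0.0276) and WDD was higher than COPD by 0.80 ± 0.21 (adjusted p = 0.00387). None of the 3 was called under quantile normalisation, and the difference of WDD from control was lost without WDD 3, 4 or 5 or control 3, 4 or 5 (adjusted p 0.058 to 0.0794). Kif20a overlaps Cdc23, a subunit of the anaphase promoting complex, and Cdc23 averaged 12.7 ± 2.64 FPKM in WDD, 5.13 ± 1.14 in COPD and 22.6 ± 2.24 in control libraries (SD, n = 5 each), the same order as Kif20a, so the levels of the pair are uncertain.

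Aurkb, the kinase of the chromosomal passenger complex, had 31.1, 32.4, 41.8, 90.8 and 87.3 FPKM in the 5 WDD libraries, 2.82, 16.97, 7.96, 18.4 and 14.4 FPKM in COPD libraries and 62.2, 17.8, 31.9, 58.8 and 21.7 FPKM in control libraries. In each WDD and each control library this level was above that of every other mitotic member, and both groups spread widely. WDD 4 and WDD 5 held the highest WDD values. They correlated with each other across genes at 0.992, the highest of the within-group pairs. Their neutrophil sums were 389 and 461 FPKM, against 91.3, 106 and 103 in WDD 1, WDD 2 and WDD 3. The part of this in the Aurkb difference was not tested. WDD libraries all lay above COPD libraries (2.20 ± 0.47, adjusted p = 0.000734), called under all 4 scalings, and COPD was lower than control, at −1.64 ± 0.47 (adjusted p = 0.00451), not called under median-of-ratios scaling (−0.77) or quantile normalisation (−1.01). Birc5, its partner in the complex, ranged over 2.73 to 4.04 FPKM in WDD, 0.415 to 5.79 in COPD and 1.804 to 3.94 in control libraries, and on the deposited scale was called higher in COPD than in control not with all libraries but without COPD 5 (0.65, adjusted p = 0.00282). With all libraries it was called higher under median-of-ratios scaling (0.90) and quantile normalisation (1.22). For WDD against COPD, Birc5 was −0.02 ± 0.32 and did not pass (adjusted p = 0.967), so it did not follow Aurkb there.

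Ube2c, the ubiquitin-conjugating enzyme of the anaphase promoting complex, had 1.94, 1.79, 1.34, 1.64 and 1.95 FPKM in the 5 WDD libraries, 2.45, 3.81, 1.92, 2.196 and 0.726 FPKM in COPD libraries and 1.001, 1.58, 0.909, 0.626 and 1.497 FPKM in control libraries. COPD and control overlapped through COPD 5 alone, and COPD and WDD also through COPD 3. COPD was higher than control by 0.55 ± 0.22 (adjusted p = 0.0307; 0.75 without COPD 5), and WDD against COPD was −0.17 ± 0.22 and did not pass on the deposited scale (adjusted p = 0.511). It was −0.37 without COPD 5, not called, and was called lower in WDD under median-of-ratios scaling (−0.60, adjusted p = 0.0321) and quantile normalisation (−0.80, adjusted p = 0.00403). The COPD call was lost without COPD 1, 2 or 4 or control 1, 3 or 4 (adjusted p 0.0538 to 0.0948). Tpx2, a spindle assembly factor, Bub1, a checkpoint kinase, and Cdc20, an activator of the anaphase promoting complex, were not called in any comparison on the deposited scale with all libraries. Their COPD fold changes against control were 0.19, −0.20 and −0.31, or 0.40, 0.03 and −0.13 without COPD 5. Tpx2 was called higher in COPD than in control under median-of-ratios scaling (0.77, adjusted p = 0.0135) and quantile normalisation (1.15), and lower in WDD than in COPD under both (−0.72 and −0.94). Quantile normalisation called Bub1 and Cdc20 higher in COPD than in control (0.80 and 0.73) and lower in WDD than in COPD (−0.66 and −0.57). Of the members under the filter, a fit without the filter called Cenpf, Kif11 and Bub1b lower in COPD than in control lungs, at −0.58, −0.42 and −0.62, and Cenpf and Kif11 lower in WDD than in control lungs, at −0.36 and −0.40.

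Library COPD 5 was low across the mitotic genes as a set. It had the lowest value of its group in 26 of the 39 tested members, or 66.7%, and in 36.1% of all tested genes. COPD 1 was the lowest of its group in 9 of the 39 (23.1%) and in 39.8% of all tested genes. Among the 20 proliferation, mitotic entry and spindle members in the table, COPD 5 was the lowest of its group in 18. It was the lowest of all 15 libraries in 17 of the 20, or 85%. Among the 15 of these members that passed the filter it was so in 12, or 80%, and among all tested genes in 31.8%. The summed FPKM of 17 of these genes, leaving out Aurkb, Kif20a and Wee1, was 37.5, 37.8, 28.9, 26.8 and 30.7 in WDD libraries, 45.0, 58.4, 42.3, 50.5 and 11.9 in COPD libraries and 30.0, 28.5, 40.1, 34.4 and 51.7 in control libraries. COPD 5 lay below all others. Aurka carried part of the level of the other 4 COPD libraries: without it the sums were 30.7, 29.98, 22.9, 21.9 and 25.4 in WDD, 33.4, 39.3, 27.3, 33.4 and 9.29 in COPD and 24.7, 23.1, 34.5, 29.5 and 45.05 in control libraries, and COPD 3 lay inside the WDD range. The genes left out were chosen after their values were seen. Aurkb, Kif20a and Wee1 were each called lower in COPD than in control lungs and higher in WDD than in COPD lungs. Aurkb alone held 31.1 to 90.8 FPKM in WDD and 2.82 to 18.4 in COPD libraries. The place of COPD libraries against WDD and control libraries in these sums therefore rests on the genes left out. In the opposite direction, COPD 5 was the highest of its group in Cdkn1a, Ccnd2, Ccnd3, Mcm3 and Wee1, among others, 8 members in all. That is 20.5% of the 39, and it was the highest of its group in 26.3% of all tested genes.

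Leaving out COPD 5 kept all 12 higher calls and the lower call of Ccnd3 in WDD against COPD. It added 5 lower ones: Aurka, Rrm2 (−1.10), Tpx2 (−0.51, adjusted p = 0.0318), Birc5 (−0.42, adjusted p = 0.0435) and Mcm5 (−0.41, adjusted p = 0.0278). Without COPD 5, 58.6% of all genes were called higher and 8.08% lower in this comparison. On the same deposited scale, other values without it, for COPD against control and then WDD against COPD, were −0.88 and 0.74 for Cdk2, −0.73 and 0.83 for Cdkn1b, −2.09 and 2.87 for Cdkn1c, −1.72 and 0.70 for Rb1, and −1.75 and 2.31 for Aurkb. The fold change of Mcm5 in COPD against control was −0.22 with it and 0.10 without it, and that of Rrm2 was 0.18 with it and 0.56 without it. In COPD against control, leaving out COPD 5 kept 17 of the 20 lower calls and all 3 higher calls and added Birc5 as higher. Of all genes, 9.98% were then called higher and 67.6% lower. In WDD against control, where COPD 5 enters only the shared estimate of spread, leaving it out kept the 6 lower calls. These were Ccnd2, Cdk6, Rb1, Tyms, Foxm1 and Kif20a. Added were 4 more lower calls, Top2a, Ccne2, Mcm6 and Wee1, with Cdkn2c higher. Over all genes, 8.84% were then called higher and 37.4% lower, against 6.35% and 31.0% with COPD 5.

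**Figure D3:**
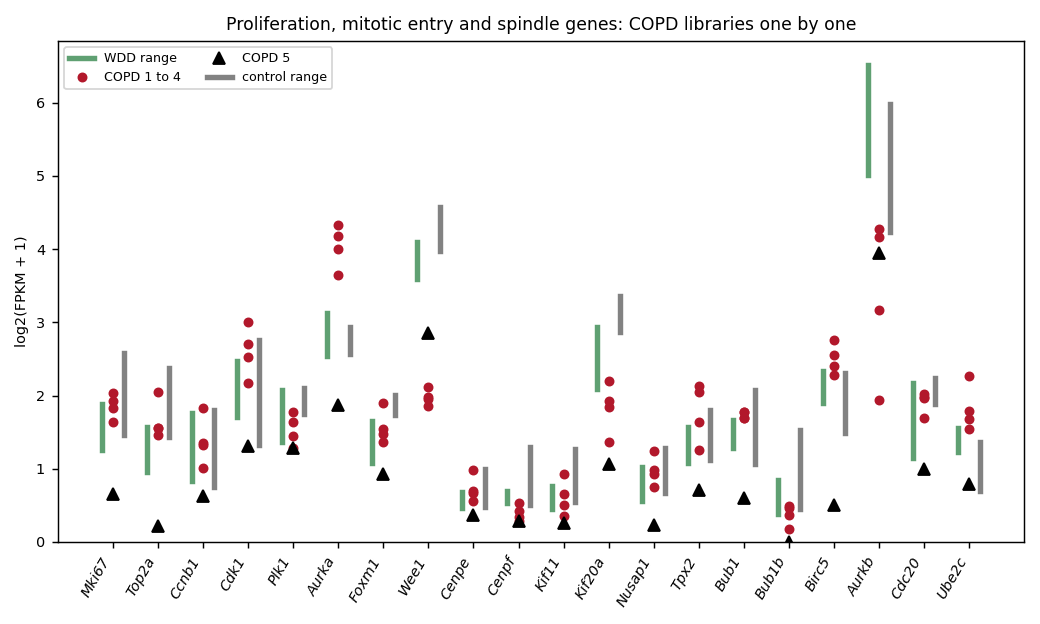
log2(FPKM + 1) of the 20 proliferation, mitotic entry and spindle genes in the table, with the range of the 5 WDD libraries (green bar), COPD 1 to 4 (red points), COPD 5 (black triangle) and the range of the 5 control libraries (grey bar). COPD 5 is the lowest COPD library in 18 of the 20 genes, and the highest in Wee1.

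The 4 scalings placed the members differently. Scaled as deposited, by the FPKM sum without mitochondrial genes, by median-of-ratios and by quantiles, the counts of members called higher and lower in COPD against control were 3 and 20, 4 and 13, 13 and 5, and 19 and 6. Those in WDD against COPD were 12 and 1, 7 and 4, 3 and 11, and 6 and 18, and those in WDD against control were 0 and 6, 0 and 9, 2 and 2, and 4 and 2. Over all genes, median-of-ratios scaling called 3977 higher and 4257 lower in COPD against control, and 1084 and 8749 were called as deposited. In the same order of scalings, 8.23% and 66.4%, 11.2% and 59.3%, 30.2% and 32.3%, and 28.4% and 29.6% of all genes were called higher and lower there. In WDD against COPD these shares were 57.1% and 6.63%, 34.5% and 11.5%, 23.4% and 21.4%, and 22.1% and 18.7%. In WDD against control they were 6.35% and 31.0%, 4.90% and 40.6%, 15.9% and 16.9%, and 17.4% and 18.3%. The sign of the fold change was the same under all 4 scalings for 19, 25 and 18 of the 39 members in the 3 comparisons. COPD was called higher than control under all 4 for Ccnd3, Aurka and Ube2c and lower for Rb1, Cdkn1c and Wee1. For WDD against COPD such calls were higher for Cdkn1c, Wee1 and Aurkb and lower for Ccnd3, and for WDD against control they were lower for Cdk6 and Rb1.

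**Figure D4:**
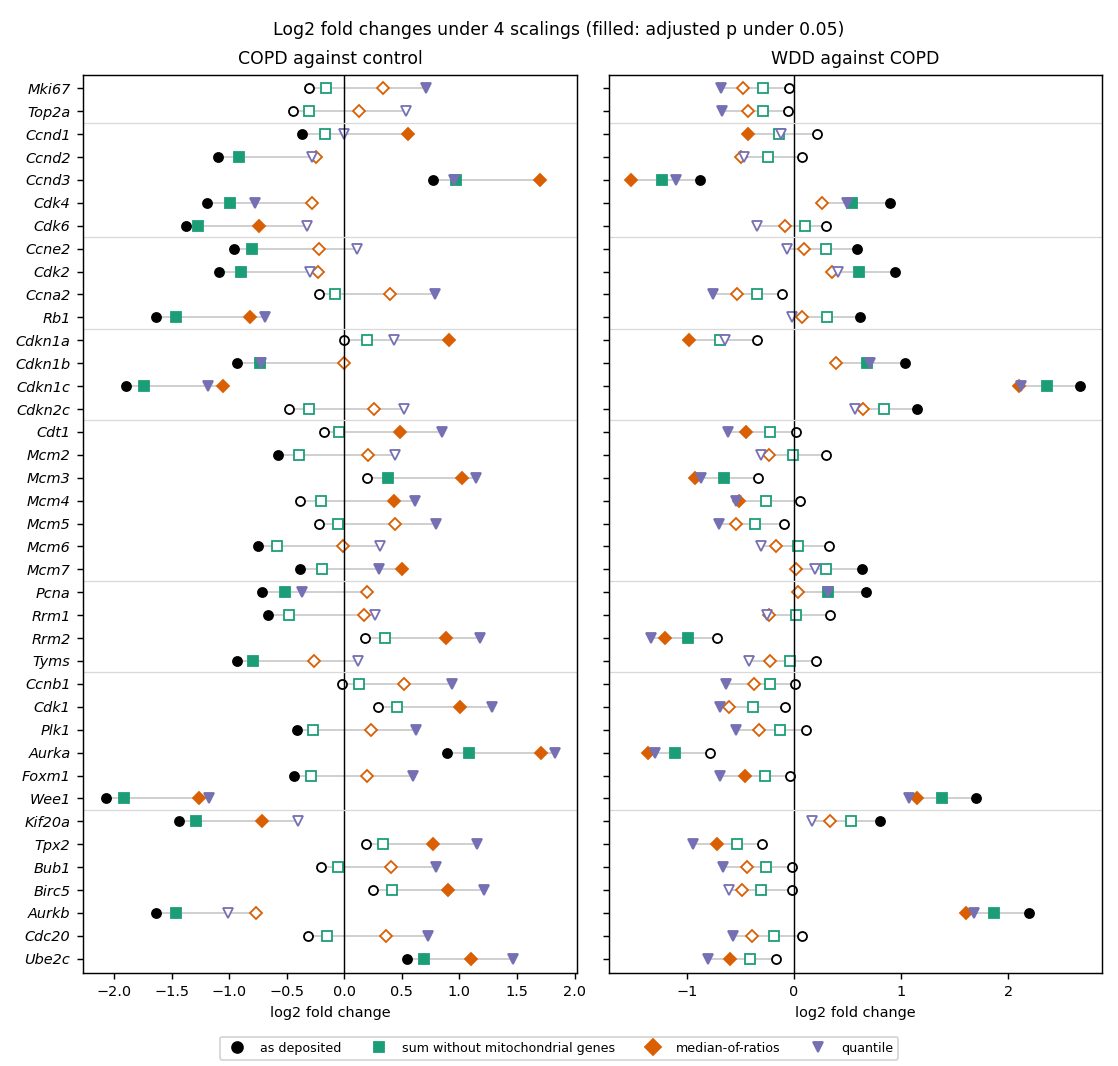
Log2 fold changes of the 39 members under 4 scalings of the libraries, for COPD against control (left) and WDD against COPD (right); filled symbols were called at an adjusted p under 0.05. In COPD against control the deposited scale gives 3 higher and 20 lower calls (8.23% and 66.4% of all genes). Quantile normalisation gives 19 higher and 6 lower (28.4% and 29.6% of all genes). Ccnd3, Aurka, Ube2c, Rb1, Cdkn1c and Wee1 keep their call under all 4.

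Other genes of the cycle were taken from 8 lists of partners, with 119 of 121 genes in the table and 103 that passed the filter. In COPD against control 5 were called higher and 63 of the 103 lower (8.23% and 66.4% of all genes), and under median-of-ratios scaling 40 and 16 (30.2% and 32.3% of all genes). In WDD against COPD 46 were higher and 3 lower (57.1% and 6.63% of all genes), and under median-of-ratios scaling 9 and 27 (23.4% and 21.4%). In WDD against control 3 were higher and 24 lower (6.35% and 31.0% of all genes), and under median-of-ratios scaling 15 and 11 (15.9% and 16.9%). In COPD against control, 11 of the 13 tested genes of cohesin and condensin were called lower. So were 11 of 14 E2F, pocket protein and DREAM genes and 8 of 13 genes of the anaphase promoting complex. Lower calls made up 5 of 11 origin recognition and helicase loading genes, 9 of 18 polymerase and fork genes and 6 of 10 kinetochore and checkpoint genes. They made up 6 of 12 other CDK regulators and 7 of 12 p53 targets. Of all genes, 66.4% were called lower. Cdc25b, the phosphatase that activates cyclin-dependent kinases, averaged 10.3 ± 1.61 FPKM in WDD, 2.45 ± 0.617 in COPD and 14.1 ± 4.11 in control lungs (SD, n = 5 each). It was lower in COPD than in control, at −2.10 (adjusted p = 6.85e-08) and higher in WDD than in COPD by 1.71 (adjusted p = 2.33e-06). Rpa1, the single-strand DNA binding protein of the fork, was lower in COPD than in control, at −1.53 (adjusted p = 1.22e-06) and higher in WDD than in COPD by 1.36 (adjusted p = 1.32e-05).

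E2f2, an activating E2F factor, ran the other way: WDD was lower than COPD, at −1.08 (adjusted p = 1.03e-05), and COPD was higher than control by 0.52 (adjusted p = 0.00326). Its repressive relative E2f6 was lower in COPD than in control, at −1.09 (adjusted p = 7.13e-07). Stag1 and Rad21 of the cohesin ring were lower in COPD than in control, at −1.22 (adjusted p = 1.94e-07) and −0.87 (adjusted p = 2.48e-05), and higher in WDD than in COPD by 0.64 (adjusted p = 0.000283) and 0.76 (adjusted p = 0.000188). Gins2 and Orc5 of helicase loading and the kinetochore genes Zwint and Bub3 were lower in COPD than in control, at −0.94, −1.04, −0.82 and −0.62 (adjusted p from 4.54e-05 to 0.0018). Over these lists together, most calls in COPD against control were lower on the deposited scale and higher under median-of-ratios scaling, as the counts above show. On the deposited scale their median fold change was −0.56, against −0.81 for all genes.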

How the data were processed

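RNA-seq libraries of rat lung were used, 5 per group. Per the labels' protocols, RNA was extracted with TRIzol and 1 ug of total RNA went into each library with an NEBNext Ultra kit. Per the submitters' processing notes, cutadapt, HISAT2 and StringTie were used with genome build Rnor_6.0; no version, annotation release or strand setting is given in the sources used here. The authors deposited FPKM per gene and library, so read totals were not analysed; steps of low values gave depths of 0.879 (COPD 4) to 1.11 (COPD 2) relative to control 2. Within groups, libraries correlated across genes at 0.885 to 0.992.

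Genes with at least 1 FPKM in at least 5 libraries (13172, with 39 members) were tested as log2(FPKM + 1) with limma 3.58.1 (empirical Bayes with a trend, R 4.3.3) in 1 fit of all 15 libraries, two-sided, with Benjamini-Hochberg adjustment over all tested genes and a threshold of 0.05. Alternatives changed the pseudocount, filter, scaling, variance model or libraries, or added a replicate block. The code was tested on simulated data. Tables and figures were made in Python 3.11.15 (matplotlib 3.10.9, scipy 1.17.1, pandas 2.3.3, numpy 2.4.6).

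The members and lists were chosen with earlier results of these data known. Values per library are given for 5 members chosen by name (Mki67, Top2a, Pcna, Ccnd1, Cdkn1a) and, per role, for up to 3 with the lowest p in COPD against control and the 1 with the lowest p in WDD against COPD; of other pathway genes, the 1 called gene of lowest p per list in each of these comparisons is named. Ranges and fold changes are given for other members. The 17-gene mitotic sum, the other genes of the closing section and the printed promoters were chosen after values were seen. A description by protein length was not run, since no protein table was used here; 27 long and 27 short housekeeping genes took its place. Labels do not say that replicates are separate rats, so the spread behind each p-value may be technical. Replicate numbers did not pair libraries: 1 of 15 same-number pairs had a correlation of deviations above 0.1 (range −0.20 to 0.14). Positions of genes in the build of the files are not given; promoter coordinates belong to GRCr8.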

Additional observations from a re-analysis of the deposited data

Results flagged for a closer look

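In 7 of the 117 sets of 5 libraries (39 members in 3 groups), the highest or lowest library lay apart from the others by Dixon's test at the 95% level; chance flags about 1 in 20 sets. Library COPD 5 accounted for 6 of them. Mki67 was at 0.58 FPKM in COPD 5, where the nearest COPD library had 2.12, and Mcm2 was at 1.56, where the nearest had 4.87. Aurka was at 2.65 FPKM in COPD 5 (nearest 11.5), Bub1 at 0.517 (nearest 2.23) and Birc5 at 0.415 (nearest 3.86). Wee1 was set apart at the other end, at 6.25 FPKM in COPD 5 (nearest 3.34). In the WDD group, Cdk1 was at 2.27 FPKM in WDD 3, where the nearest library had 3.84.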

How the results depend on the processing

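Pseudocount 0.5, no filter and limma without its trend left each count of called members within 1.5 times its value. In COPD against control, the 3 higher calls became 13 under median-of-ratios scaling, 19 under quantile normalisation and 1 in a fit of only the 2 groups. That fit called 7.37% of all genes higher. The 20 lower calls became 5 and 6 under these 2 scalings and 13 with the FPKM sum without mitochondrial genes. In WDD against COPD, the 12 higher calls became 3, 6 and 7 under median-of-ratios scaling, quantile normalisation and the sum without mitochondrial genes. The 1 lower call became 11, 18 and 4 under these scalings, 3 under library weights and 4 without both COPD 1 and COPD 5. Library weights called 8.93% of all genes lower, and the fit without COPD 1 and COPD 5 called 9.91% lower. In WDD against control, the 0 higher calls became 2 under median-of-ratios scaling, 4 under quantile normalisation and 4 under library weights. They became 3 without COPD 1 and COPD 5 and 3 in a fit of only the 2 groups. In the same order the 6 lower calls became 2, 2, 18, 11 and 11, and 3 with a pseudocount of 0.1. Of all genes, library weights called 15.9% higher and 46.4% lower. Without COPD 1 and COPD 5 these shares were 11.3% and 41.5%, and in the fit of only the 2 groups 12.6% and 42.7%. A pseudocount of 0.1 called 27.3% of all genes lower. A mean of at least 5 FPKM left 19 members to test, which by itself lowers counts: 13 lower calls in COPD against control and 2 in WDD against control. Of all genes tested under that filter, 63.2% and 27.6% were called lower in these comparisons. With 1 library left out, the counts ranged over 1 to 4 and 16 to 21 (higher and lower) in COPD against control, 12 to 13 and 1 to 6 in WDD against COPD, and 0 to 1 and 2 to 10 in WDD against control. The 3 higher calls became 1 without COPD 2 or COPD 4; the 1 lower call in WDD against COPD became 2 without COPD 1 or COPD 4 and 6 without COPD 5. The 6 lower calls in WDD against control became 10 without COPD 5, and 2 without WDD 3, WDD 5, control 3, control 4 or control 5. With the replicate block the counts were 3 and 20, 12 and 1, and 0 and 4; replicate numbers do not pair these libraries. Called directions over all genes also moved: higher and lower calls were 1084 and 8749, 7526 and 873, and 836 and 4079 on the deposited scale in the 3 comparisons, 3977 and 4257, 3076 and 2819, and 2100 and 2221 under median-of-ratios scaling, 3737 and 3893, 2910 and 2469, and 2288 and 2408 under quantile normalisation, and 1479 and 7813, 4544 and 1511, and 645 and 5349 without mitochondrial genes in the sum. Signs of log2 fold changes turned, with a call before or after, only under 2 of the scalings. For COPD against control these were, under median-of-ratios scaling, Ccnd1 0.55, Cdt1 0.48, Mcm2 0.21, Mcm4 0.43, Mcm7 0.50, Pcna 0.20, Rrm1 0.17, Plk1 0.23, Foxm1 0.19; under quantile normalisation, Mki67 0.71, Ccnd1 0.000578, Ccne2 0.11, Ccna2 0.79, Cdt1 0.85, Mcm2 0.44, Mcm4 0.61, Mcm5 0.79, Mcm6 0.31, Mcm7 0.30, Rrm1 0.27, Tyms 0.12, Ccnb1 0.93, Plk1 0.62, Foxm1 0.59, Bub1 0.80, Cdc20 0.73. For WDD against COPD they were, under median-of-ratios scaling, Ccnd1 −0.43, Cdt1 −0.44, Mcm4 −0.51; under quantile normalisation, Ccne2 −0.061, Rb1 −0.018, Cdt1 −0.62, Mcm4 −0.54, Ccnb1 −0.64, Plk1 −0.55, Cdc20 −0.57. The cause was not tested. Depth in reads is unknown, so members near 1 FPKM carry counting error that could not be given as an interval.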

Other observations

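Targets of p53, which arrest the cycle or promote repair and cell death, went in both directions; the genes named here were chosen after their values were seen, except Sesn1. Of the 12 tested, 2 were called higher and 7 lower in COPD than in control lungs, where 8.23% of all genes were called higher and 66.4% lower. Gadd45a, a stress-induced growth arrest gene, averaged 75.8 ± 9.43 FPKM in WDD, 375 ± 192 in COPD and 59.2 ± 24.2 in control lungs (SD, n = 5 each). It was higher in COPD than in control lungs by 2.59 on the log2 scale (adjusted p = 4.41e-07), and WDD against COPD was −2.17 (adjusted p = 9.04e-06). Bax, a cell death gene, averaged 53.8 ± 4.90 FPKM in WDD, 60.6 ± 18.3 in COPD and 31.4 ± 8.73 in control lungs, and was higher than in control lungs both in WDD (0.79, adjusted p = 0.00756) and in COPD (0.91, adjusted p = 0.00099). Sesn1, a stress-responsive regulator of growth signalling, averaged 16.2 ± 1.47 FPKM in WDD, 4.09 ± 1.22 in COPD and 19.1 ± 1.34 in control lungs; COPD against control was −2.02 (adjusted p = 1.95e-08) and WDD against COPD 1.79 (adjusted p = 2.85e-07). Phlda3 and Tp53inp1 were also lower in COPD than in control lungs, at −2.14 (adjusted p = 2.15e-05) and −2.67 (adjusted p = 6.89e-08).

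Cks2, a small subunit of cyclin-dependent kinases, averaged 7.55 ± 1.30 FPKM in WDD, 20.7 ± 11.3 in COPD and 4.58 ± 1.94 in control lungs. It was higher in COPD than in control lungs by 1.91 (adjusted p = 1.46e-05), and WDD against COPD was −1.23 (adjusted p = 0.00142). Gins4, a helicase subunit, was higher in COPD than in control lungs by 0.52 (adjusted p = 0.0205). In WDD against control lungs, Rpa3 of the replication fork and Ube2s of mitotic exit were higher, by 0.62 (adjusted p = 0.00751) and 0.55 (adjusted p = 0.0355).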
